A study of Mus musculus with 12 samples.

Results

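Laminins, nidogens and perlecan are the non-collagen scaffold of basement membranes, and 10 of their genes were followed in mouse lung over 4 ages. The members were taken from the deposited count table by gene symbol: the laminin alpha chains Lama2, Lama3, Lama4 and Lama5, the beta chains Lamb1 and Lamb2, the gamma chain Lamc1, the nidogens Nid1 and Nid2, and perlecan, Hspg2. All 10 were found, each as 1 row of the 55487 genes in the table, and all 10 were among the 18407 genes tested. Lungs of the substrain C57BL/6NCr were sampled at ages of 6, 12, 20 and 30 months, written here 6M, 12M, 20M and 30M, with 3 libraries of poly-A selected RNA at each age. The labels give neither a treatment nor a genotype beyond the strain, and they do not say that each library is a separate mouse, so each p-value speaks only to the spread among the libraries, which may be technical.

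Basement membranes are thin sheets of matrix under epithelium and endothelium and around muscle cells. A laminin is a trimer of 1 alpha, 1 beta and 1 gamma chain. Its alpha chain carries the sites for integrins and dystroglycan on the cell, and its short arms join other laminins into a network. Nidogens bind the laminin gamma 1 chain and tie this network to collagen IV, and perlecan, a heparan sulfate proteoglycan, also binds both. In the alveolar wall this sheet is shared by alveolar epithelium and capillaries.

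Library totals ran from 12152066 to 15058628 counts, and libraries are named by age and number (30M_216). Levels are CPM, counts per 1000000 counts after TMM scaling for composition. Alveolar markers were abundant in every library (Sftpc 10400 to 23800 CPM, Ager 1650 to 3130 CPM). Some libraries stood apart. Expression against the 6M mean followed the GC content of genes with Spearman rho of 0.358 in 20M_221, 0.465 in 20M_222 and 0.328 in 30M_220, as a description across genes. The value was 0.229 for 12M_208, and the 8 remaining libraries spanned -0.0869 to 0.0518. The 3 libraries of highest rho are called those of steep GC trend. Library 20M_222 also held skeletal muscle RNA: Acta1, the actin of that tissue, reached 1040 CPM in it and no more than 2.13 CPM in any other. The airway markers Krt5 and Trp63 were high in it as well, at 186 and 17.9 CPM. In any other library they reached at most 2.59 and 2.31 CPM. The source of this RNA was not tested. Library 30M_218 had the highest mesothelial marker level, with 4 markers summing to 989 CPM against 129 to 450 CPM in the others (Msln 549 CPM against at most 198 CPM). In whole tissue, fewer cells of a type and less RNA per cell cannot be told apart.

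Set on a per-length scale, Lamb2 was the most abundant member and Nid2 the least. CPM were divided by the length of the longest annotated transcript (4876 bases for Nid2 to 14187 for Hspg2). Lamb2, the laminin beta 2 chain, averaged 34.3 ± 7.08 CPM per kilobase over the 12 libraries (SD). Lamc1, the gamma chain of most laminins, followed at 19.4 ± 3.97, Lamb1, the other beta chain, at 17.0 ± 3.35, and Lama5 at 16.03 ± 5.27 CPM per kilobase. Nid1 stood at 14.02 ± 3.19, Hspg2 at 13.4 ± 3.37, Lama3 at 10.6 ± 2.24 and Lama4 at 9.45 ± 2.52 CPM per kilobase. Lama2 at 3.18 ± 0.837 and Nid2 at 2.0 ± 0.459 CPM per kilobase came last. Lamb2 was above Lamc1 in 12 of 12 libraries, and Lama4 above Lama2 likewise. Lamb1 was above Lama5 in only 7 of 12, and Lama3 above Lama4 in 7 of 12, so neither pair could be ordered. With the length of all exons merged in place of the longest transcript, Lamb1 moved to rank 7 and Nid2 stood above Lama2.

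**Figure D1:**
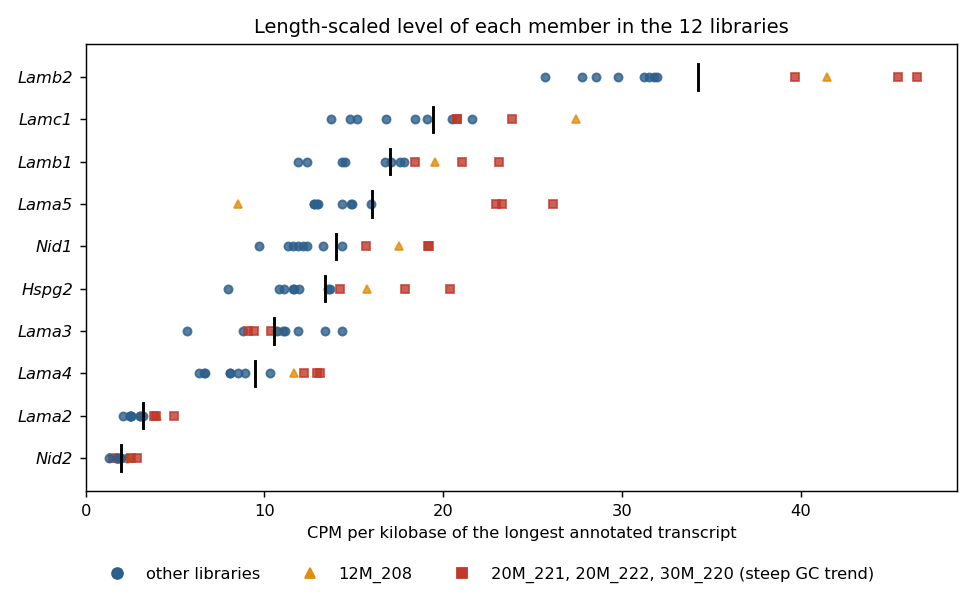
Level of each member in CPM per kilobase of its longest annotated transcript (horizontal axis), 1 point per library and a vertical bar for the mean of 12 libraries. Lamb2 lies at 34.3 on average and above Lamc1 in every library, while Lama2 and Nid2 lie lowest at 3.18 and 2.0.

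Summed per length, the 4 alpha chains, the 2 beta chains and Lamc1 stood at 39.2 ± 7.79, 51.3 ± 10.1 and 19.4 ± 3.96 CPM per kilobase (SD, 12 libraries), so beta chain transcripts exceeded that gamma chain in all of them. Lama5 made up 40.4 ± 7.26% of alpha chain transcript, Lama3 27.5 ± 6.57%, Lama4 24.0 ± 3.91% and Lama2 8.12 ± 1.39%. With merged exon lengths, a setting added after the data were seen, the shares were 47.9 ± 8.24% for Lama5, 32.1 ± 7.56% for Lama3, 14.4 ± 2.8% for Lama4 and 5.7 ± 1.14% for Lama2. Lama1, the embryonic alpha chain, was low at 1.69 to 8.39 CPM in single libraries.

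Over age, 0 of the 10 members was called. A call here is an adjusted p under 0.05 from edgeR's quasi-likelihood test with Benjamini-Hochberg adjustment over all tested genes. That test called 1.96% of genes at 30M against 6M, 0.0163% at 20M against 6M, 0% at 12M against 6M, 0.712% at 30M against 12M, 0% at 20M against 12M and 0.212% at 30M against 20M. It called 1.11% in the test for any difference among the ages and 2.68% for a slope per month. An unadjusted p under 0.05 was met by Lama3 at 30M against 6M, at 20M against 6M, among all ages and for the slope, and by Lama5 at 20M against 12M. Of all genes, 11.6%, 7.80%, 11.2%, 13.3% and 11.2% reached that level in these 5 tests. No member reached it at 12M against 6M (3.60% of genes), at 30M against 12M (10.9%) or at 30M against 20M (8.89%).

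Other tools made 3 calls, all of them of Lama3 or Lama5. DESeq2 called Lama3 for the slope (adjusted p = 0.0389), where it called 4.89% of genes. It called 0 members among all ages (4.28% of genes) and 0 at 30M against 6M (4.09%), 20M against 6M (0.326%), 12M against 6M (0.0489%), 30M against 12M (2.74%), 20M against 12M (0.0489%) and likewise at 30M against 20M (1.73%). limma voom called Lama3 for the slope (adjusted p = 0.0418), where it called 3.18% of genes, and Lama5 among all ages (adjusted p = 0.0387), where it called 9.01%. It called 0 members at 30M against 6M (3.23% of genes), 20M against 6M (4.22%), 12M against 6M (0%), 30M against 12M (1.02%), 20M against 12M (0%) and likewise at 30M against 20M (1.15%). The older and younger libraries did not overlap for 1 member in each of 5 comparisons, always with the older ages lower. This was Lama3 at 30M against 6M (8.66% of genes lower without overlap), 20M against 6M (7.58%), 30M against 12M (5.74%) and also 20M against 12M (7.42%), and Lama5 at 12M against 6M (5.81%). At 30M against 20M all 10 members overlapped, while 5.16% of genes were lower without overlap. There all 10 log2 fold changes were negative, between -0.33 and -0.092, with a median of -0.27 beside -0.0138 over all tested genes. Most members were high or low together in the same libraries, as given below, so these 10 signs are not independent.

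**Figure D2:**
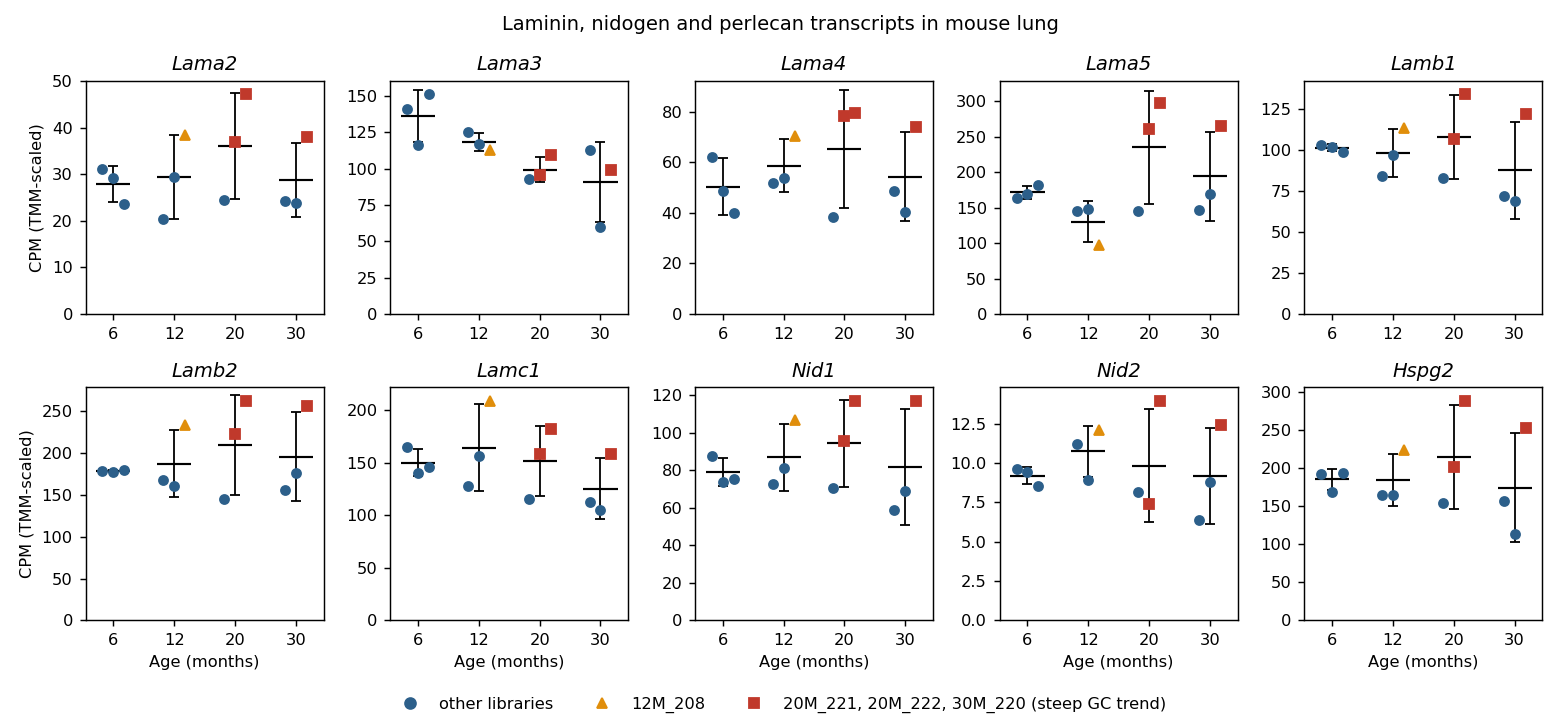
CPM of each member (vertical axes, from 0) by age in months; points are libraries (red squares those of steep GC trend, the orange triangle 12M_208), bars the mean of 3 libraries and whiskers the SD. In 9 of the 10 panels 20M_222 and 30M_220 are among the highest 4 libraries, and the exception is Lama3.

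At 12M, 20M and 30M, most members were high or low together in the same libraries. Libraries 20M_222 and 30M_220 were each among the 4 highest for 9 of the 10 members, 12M_208 for 8 and 20M_221 for 7. Libraries 20M_213 and 30M_216 were each among the 4 lowest for 9 members, and 12M_206 and 30M_218 for 7. At 6M, 6M_201, 6M_202 and 6M_203 were among the 4 highest for 2, 0 and 2 members. They were among the 4 lowest for 0, 0 and 3. Relative to the 6M mean, the median member stood at 0.452 in 30M_220 against -0.248 in 30M_216 and -0.254 in 30M_218, in log2 CPM. At 20M it was 0.583 in 20M_222 and 0.203 in 20M_221 against -0.275 in 20M_213, and at 12M 0.386 in 12M_208 against -0.145 and -0.053 in 12M_206 and 12M_207. The median of all tested genes stayed between -0.00499 and 0.0285 in these libraries. Lama3 stood apart, with values below its 6M mean in all 9 older libraries. Across the 12 libraries, log2 levels of Lamb1 and Hspg2 had a Pearson r of 0.931 (Spearman rho 0.972) and those of Lamb1 and Nid1 one of 0.911 (0.965). By contrast, r between Lama3 and another member lay between -0.137 and 0.446, and r between Lama5 and another member between -0.137 and 0.549. These values share library and depth, and are given as descriptions.

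**Figure D3:**
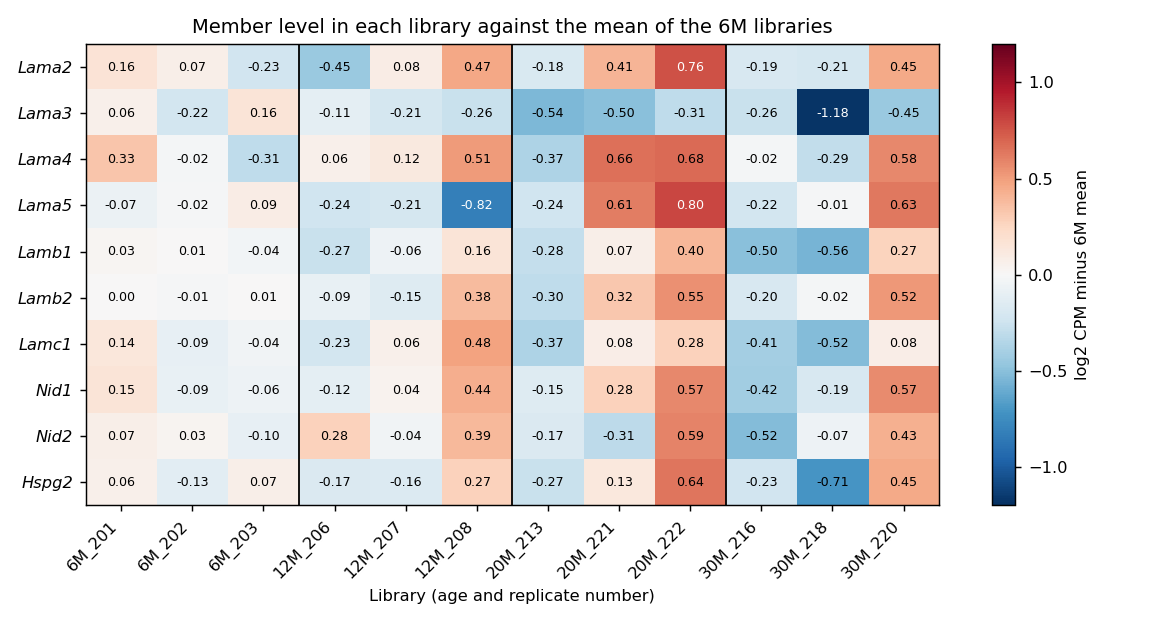
Level of each member (rows) in each library (columns, by age) as log2 CPM minus the mean of the 6M libraries, with the value printed in each cell; red is higher, blue lower. The columns 12M_208, 20M_221, 20M_222 and 30M_220 are mostly red, whereas Lama3 is blue in every library after 6M, lowest in 30M_218 at -1.18.

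The same libraries differed in cell type markers and GC trend. Removing each library's GC trend left the median member at 0.257 in 30M_220, 0.323 in 20M_222, 0.0232 in 20M_221 and 0.285 in 12M_208, and at -0.235, -0.242 and -0.279 in 30M_216, 30M_218 and 20M_213. Summed over 8 smooth muscle and pericyte markers, the level was 354, 399 and 833 CPM in 30M_216, 30M_218 and 30M_220, against 328 to 499 CPM at 6M. It was 424, 797 and 870 CPM in 20M_213, 20M_221 and 20M_222, and 396, 491 and 628 CPM in 12M_206, 12M_207 and 12M_208. The 8 endothelial markers summed to 3100, 3100 and 4200 CPM at 30M (in the same order), against 2830 to 3210 CPM at 6M, and to 4460 CPM in 12M_208. The 6 alveolar type 1 markers went the other way, at 3360 CPM in 30M_220, 3870 in 20M_221 and 3880 in 20M_222, against 4290 to 6390 CPM in the other 9 libraries. The part of these differences in the members' levels was not tested.

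Lama3 (ENSMUSG00000024421, chromosome 18, 12333819 to 12583013, plus strand, GRCm38) encodes the alpha 3 chain of epithelial laminins, which anchors epithelial cells through integrins. It stood at 141, 117 and 151 CPM at 6M, at 125, 117 and 113 CPM at 12M, at 93.0, 95.8 and 109.6 CPM at 20M and at 113, 59.8 and 99.2 CPM at 30M. All 30M libraries lay below all 6M libraries, and so did all 20M libraries. Lama3 averaged 90.6 ± 27.6 CPM at 30M, against 136 ± 17.8 CPM at 6M (SD, 3 libraries each; log2 fold change -0.59, SE 0.20, edgeR adjusted p = 0.194). At 20M it was 99.5 ± 8.85 CPM (log2 fold change against 6M -0.46, SE 0.20, edgeR adjusted p = 0.638). The slope over the 4 ages was -0.0247 log2 per month (SE 0.00728, edgeR adjusted p = 0.0965). Without 30M_216 the slope was called (-0.0327, edgeR adjusted p = 0.0315, where 2.46% of genes were called, 0.558% as lower), and without 30M_218 it was -0.0173. The log2 fold change at 30M against 6M was -0.785 without 30M_216 and -0.364 without 30M_218. Library 30M_218, the lowest for Lama3, is the one with the high mesothelial markers, whose part in this level was not tested.

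Lamb3, a beta chain that joins Lama3 in epithelial laminin, was at 105 ± 21.9 CPM at 30M and 124 ± 9.97 CPM at 6M (edgeR adjusted p = 0.682). The alveolar type 1 markers label the cells lining most of the air space. Of these 6 markers, 0 were called at 30M against 6M by edgeR, DESeq2 or limma voom. In edgeR, 4 of the 6 met an unadjusted p under 0.05, as did 11.6% of all genes. All 6 had a negative log2 fold change, with a median of -0.44. At 20M against 6M, where edgeR and DESeq2 called 0, limma voom called 3 (Hopx, Pdpn and Cldn18; 4.22% of all genes called). For the slope DESeq2 called 2 (Hopx and Rtkn2; 4.89% of all genes called). Alveolar type 2 markers were also all 6 negative at 30M against 6M (median -0.38), with 0 called by any of these tools. In edgeR, 2 of these 6 met an unadjusted p under 0.05, beside the same 11.6% of all genes. At 20M against 6M limma voom called 3 of them (Sftpc, Sftpa1 and Lamp3), where edgeR and DESeq2 called 0. For the slope DESeq2 and limma voom each called 1, Lamp3 (4.89% and 3.18% of all genes called). The part of those cells in the level of Lama3 was not tested.

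Lama5 (ENSMUSG00000015647, chromosome 2, 180176373 to 180225859, minus strand) encodes the alpha 5 chain, which is found under both epithelium and endothelium of adult lung. Relative to its mean, it had the widest spread between libraries of the members. Its level was 163, 169 and 182 CPM at 6M, 145, 148 and 96.8 CPM at 12M, 145, 262 and 298 CPM at 20M and 147, 169.5 and 265 CPM at 30M. The 3 libraries with a steep GC trend, 20M_221, 20M_222 and 30M_220, were its 3 highest, and 12M_208, which was high for most other members, was its lowest. The Lama5 transcript has a GC content of 59.9%, where the members span 47.7% (Lama2) to 60.9% (Hspg2). Relative to the 6M mean, Lama5 stood at 0.61, 0.797 and 0.629 log2 CPM in 20M_221, 20M_222 and 30M_220. Lama2 was also higher there, at 0.406, 0.763 and 0.45. The part of GC content in these levels was not tested. The mean of Lama5 was 194 ± 62.5 CPM at 30M and 172 ± 9.44 CPM at 6M (log2 fold change 0.18, SE 0.27, edgeR adjusted p = 0.901). At 20M against 12M it was 235 ± 79.7 CPM against 130 ± 28.8 CPM (log2 fold change 0.85, SE 0.27, edgeR adjusted p = 0.429). With the GC trend removed and all libraries kept, that fold change was 0.617 (edgeR adjusted p = 0.476). Without the 3 libraries it was 0.16, with 1 library left at 20M.

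Lama4 (ENSMUSG00000019846, chromosome 10, 38965515 to 39110188, plus strand) encodes the alpha 4 chain of vessel walls. It was at 48.7, 40.4 and 74.0 CPM at 30M, against 62.2, 48.8 and 39.9 CPM at 6M. Lama2 (ENSMUSG00000019899, chromosome 10, 26980036 to 27619758, minus strand) encodes the alpha 2 chain, best known from muscle, where its loss causes a muscular dystrophy. It was at 24.4, 23.9 and 38.0 CPM at 30M, against 31.1, 29.2 and 23.6 CPM at 6M. For both genes the ages overlapped and 30M_220 was the highest library of the 2 ages. The log2 fold change was 0.11 (SE 0.29, edgeR adjusted p = 0.947) for Lama4 and 0.042 (SE 0.28, edgeR adjusted p = 0.982) for Lama2. The ratio of Lama2 to Lama4 was 0.394 to 0.639 in all 12 libraries, and its slope on age was 0.000197 log2 per month (exact two-sided permutation test over 369600 assignments of the libraries to the ages, p = 0.978, adjusted over 5 ratios 0.978). In 20M_222, the library with skeletal muscle RNA, Lama2 was at its highest, 47.3 CPM, and the ratio was 0.595.

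Between the beta chains, the ratio of Lamb2 to Lamb1 rose with age over all 12 libraries, but several fits below did not keep that call. Both join the same alpha chains and Lamc1; Lamb2 is the chain enriched in vessel walls and at the neuromuscular junction. The ratio of Lamb2 to Lamb1 in CPM was 1.74, 1.74 and 1.82 in the 6M libraries, 1.99, 1.66 and 2.06 at 12M, 1.74, 2.09 and 1.96 at 20M and 2.18, 2.56 and 2.1 at 30M. Every 30M library was above every library of the other ages, with 30M_220 at 2.1 and 20M_221 at 2.09 the closest. The transcripts of Lamb2 and Lamb1 have GC contents of 58.8% and 52.5%. The mean ratio came to 2.28 ± 0.243 at 30M, against 1.77 ± 0.0471 at 6M (SD, 3 libraries each). Its slope was 0.0141 log2 per month (exact two-sided permutation test over 369600 assignments, p = 0.00541, adjusted over the 5 ratios 0.027). The 5 ratios were chosen with earlier results of these data known, a choice that the adjustment does not cover. As a share of beta chain transcript per length, Lamb2 made up 70.0 ± 2.14% at 30M and 64.5 ± 0.635% at 6M. Left out singly, 3 libraries took the adjusted p of that slope over the threshold: 6M_201 (0.066), 6M_202 (0.0648) and 30M_218 (0.127), which had the highest ratio and the high mesothelial markers. It was 0.0737 with the GC trend removed and 0.107 without the 3 libraries of steep GC trend, and the slope lay between 0.0105 and 0.0156 in these fits. With fewer libraries the permutation test also has fewer assignments.

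**Figure D4:**
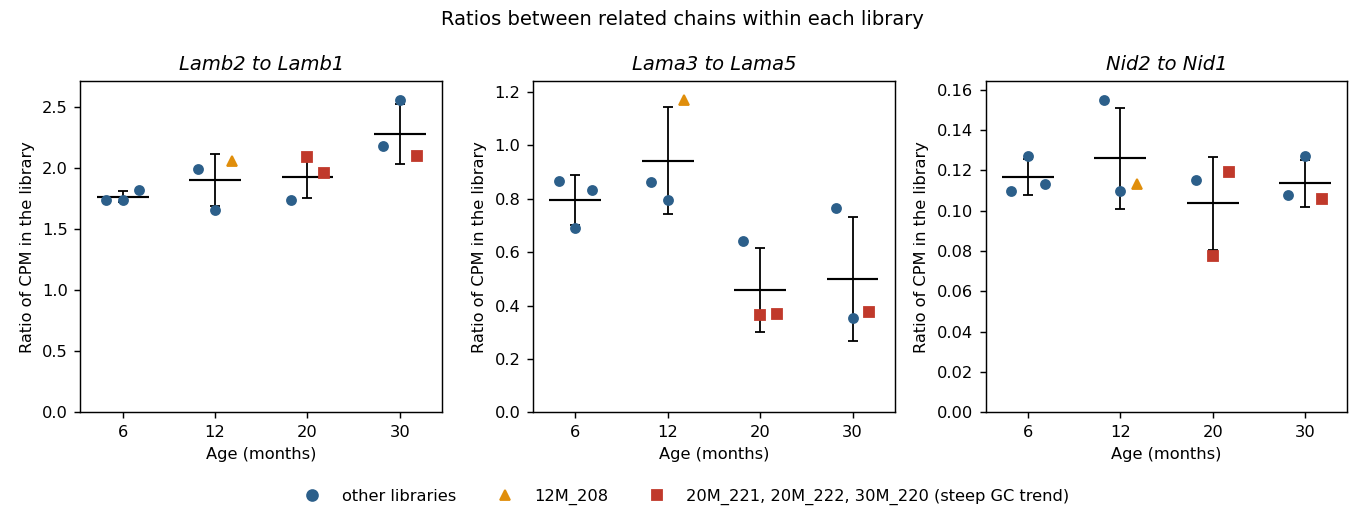
Ratio of CPM between 2 related genes within each library (vertical axes, from 0) by age in months; points are libraries, bars the mean of 3 libraries and whiskers the SD. Lamb2 to Lamb1 lies between 2.1 and 2.56 in the 30M libraries, above every library of the other ages, while Lama3 to Lama5 and Nid2 to Nid1 overlap between 30M and 6M.

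Singly, neither beta chain was called. Lamb1 (ENSMUSG00000002900, chromosome 12, 31265234 to 31329644, plus strand) was at 71.7, 68.8 and 122 CPM at 30M, against 103, 102 and 98.8 CPM at 6M. Lamb2 (ENSMUSG00000052911, chromosome 9, 108479736 to 108490530, plus strand) was at 156, 176 and 256 CPM at 30M, against 179, 177 and 179.8 CPM at 6M. In both, 30M_220 lay above all 6M libraries and the other 30M libraries lay below them. The log2 fold change was -0.21 (SE 0.22, edgeR adjusted p = 0.827) for Lamb1 and 0.13 (SE 0.23, edgeR adjusted p = 0.914) for Lamb2. For Lamb1 it was -0.528 without 30M_220, -0.095 without 30M_216 and -0.0672 without 30M_218. Without the 3 libraries of steep GC trend, Lamb1 was called as falling with age (-0.0228 log2 per month against -0.00676 with all libraries, edgeR adjusted p = 0.0384), where 2.75% of genes were called and 0.114% as falling. Lamc1 (ENSMUSG00000026478, chromosome 1, 153218922 to 153332786, minus strand), which carries the nidogen site, was at 113, 104.6 and 158 CPM at 30M, against 165, 140.2 and 146 CPM at 6M (log2 fold change -0.26, SE 0.22, edgeR adjusted p = 0.756). That fold change was -0.468 without 30M_220 and -0.149 without 30M_218. The slope of Lamc1 was -0.0125 log2 per month (edgeR adjusted p = 0.611). With 12M_208 left out as well as those 3 libraries, a fit added after the data were seen that keeps 2 libraries at 30M and 1 at 20M, Lamb1 and Lamc1 were both called for the slope (edgeR adjusted p = 0.00728 and 0.0252, where 4.58% of genes were called and 0.635% as falling). In that fit Lamb1 was also called at 30M against 6M (log2 fold change -0.52, edgeR adjusted p = 0.0287, where 2.79% of genes were called and 0.266% as lower).

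The upstream sequences of the beta chain genes are shown because their ratio met the threshold over all 12 libraries. Those of Nid1 and Hspg2, whose levels followed Lamb1 across libraries, are also shown. Each is the stretch of 250 bases before the RefSeq transcript start (GRCm38.p6), 5′ to 3′ on the gene's strand; 6 of the 10 members were in the promoter table. In Lamb2 and these other genes the RefSeq start lies inside the gene as annotated in the count table, so the end of each window falls within it. The annotated gene starts at 108479736 for Lamb2, 31265234 for Lamb1, 13437551 for Nid1 and 137468769 for Hspg2. The part inside is longest for Lamb2, where it slightly exceeds the part before the gene. The windows therefore differ in how much sequence before the annotated gene they hold. Capitals mark the GC box GGGCGG or its reverse CCGCCC, and the CCAAT box CCAAT or its reverse ATTGG. The TATA box TATAAA (reverse TTTATA) was also searched. No matches shown share a base. Of all promoters in the table, a GC box was found in 32.7%, a CCAAT box in 33.8% and a TATA box in 12.4% of 32851 windows of this length. The windows are chr9:108479612-108479861 for Lamb2, chr12:31265043-31265292 for Lamb1, chr13:13437352-13437601 for Nid1 and chr4:137468553-137468802 for Hspg2, all on the plus strand.
Lamb2: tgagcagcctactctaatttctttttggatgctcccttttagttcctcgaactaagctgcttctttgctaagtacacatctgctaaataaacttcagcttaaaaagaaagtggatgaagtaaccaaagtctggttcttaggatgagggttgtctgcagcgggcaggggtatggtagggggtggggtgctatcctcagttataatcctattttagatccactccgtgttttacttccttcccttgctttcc
Lamb1: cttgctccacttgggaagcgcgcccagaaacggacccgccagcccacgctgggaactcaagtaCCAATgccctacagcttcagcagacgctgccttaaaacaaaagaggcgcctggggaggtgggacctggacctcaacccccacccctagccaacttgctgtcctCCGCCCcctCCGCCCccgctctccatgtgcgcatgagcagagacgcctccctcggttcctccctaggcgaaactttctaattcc
Nid1: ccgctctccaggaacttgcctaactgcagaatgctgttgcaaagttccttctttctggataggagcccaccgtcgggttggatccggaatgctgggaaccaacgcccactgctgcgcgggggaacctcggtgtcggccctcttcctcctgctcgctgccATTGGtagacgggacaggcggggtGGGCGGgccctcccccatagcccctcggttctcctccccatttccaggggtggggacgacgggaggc
Hspg2: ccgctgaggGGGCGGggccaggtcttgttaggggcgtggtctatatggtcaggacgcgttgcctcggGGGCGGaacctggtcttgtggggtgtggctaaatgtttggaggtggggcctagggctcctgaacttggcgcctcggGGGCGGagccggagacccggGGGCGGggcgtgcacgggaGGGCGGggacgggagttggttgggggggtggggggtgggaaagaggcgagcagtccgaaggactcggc

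The Lamb2 window held no match to the 3 motifs, 3 CpG and 43.6% GC. That of Lamb1 held 2 GC boxes and 1 CCAAT box, with 14 CpG and 62% GC. Nid1 had 1 of each, 16 CpG and 64.4% GC, and Hspg2 had 5 GC boxes, 20 CpG and 70% GC. The median window held 6 CpG. These matches describe letters in the window and no binding was measured.

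The nidogens and perlecan, which link laminin to collagen IV, showed no call. Nid1 (ENSMUSG00000005397, chromosome 13, 13437551 to 13512269, plus strand) was at 58.9, 68.9 and 117 CPM at 30M, against 87.4, 73.9 and 75.5 CPM at 6M (log2 fold change 0.048, SE 0.25, edgeR adjusted p = 0.977). Nid2 (ENSMUSG00000021806, chromosome 14, 19751265 to 19811787, plus strand), the scarcer nidogen, was at 6.37, 8.78 and 12.4 CPM at 30M, against 9.63, 9.41 and 8.57 CPM at 6M (log2 fold change 0.0014, SE 0.28, edgeR adjusted p = 0.999). Hspg2 (ENSMUSG00000028763, chromosome 4, 137468769 to 137570630, plus strand) was at 157, 113 and 253 CPM at 30M, against 193, 169 and 194 CPM at 6M (log2 fold change -0.085, SE 0.28, edgeR adjusted p = 0.959). In all 3 genes the 30M libraries lay on both sides of the 6M libraries, with 30M_220 the highest. Nid2 made up 12.4 ± 1.10% of nidogen transcript per length at 30M and 12.7 ± 0.850% at 6M. The ratio of Nid2 to Nid1 had a slope of -0.00483 log2 per month (exact two-sided permutation test, p = 0.561, adjusted 0.701). Nid2 overlaps the more highly counted gene Rtraf on the opposite strand, and the sources used here do not say whether reads were assigned by strand, so its level is uncertain.

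How large a change these data leave room for is given by the 95% intervals at 30M against 6M. The interval of the fold ran from 0.620 to 1.2 for Lamb1, 0.775 to 1.55 for Lamb2, 0.603 to 1.15 for Lamc1, 0.754 to 1.70 for Lama5 and 0.622 to 1.43 for Hspg2. It was 0.711 to 1.5 for Nid1, 0.659 to 1.52 for Nid2, 0.700 to 1.67 for Lama4 and 0.682 to 1.56 for Lama2. For Lama3 it was 0.496 to 0.891. These intervals are per gene and not adjusted for the number of genes tested (edgeR adjusted p = 0.194 for Lama3). The median log2 fold change over the 10 members was 0.022, with 6 positive and 4 negative, beside 0.0028 over all tested genes. Without 30M_220 all 10 were negative, and Lama2 (-0.213), Lama4 (-0.177), Lama5 (-0.115), Lamb2 (-0.107), Nid1 (-0.305) and Nid2 (-0.282) had turned sign. With 30M_218 left out in its place, these genes stayed positive and Hspg2 turned positive (0.148).

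**Figure D5:**
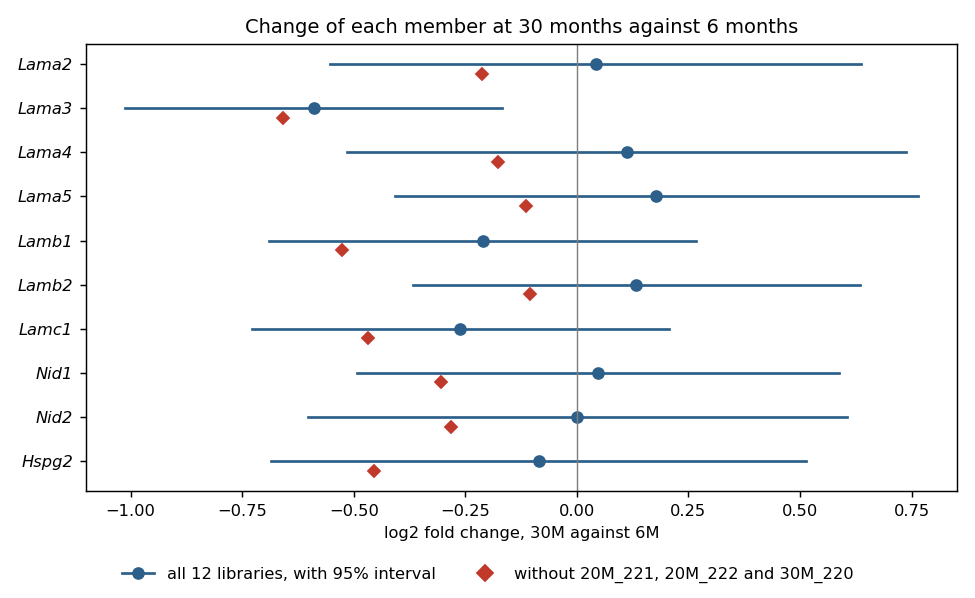
Log2 fold change of each member at 30M against 6M (horizontal axis): circles and bars give the estimate and its 95% interval with all 12 libraries, diamonds the estimate without 20M_221, 20M_222 and 30M_220. All diamonds lie below 0, and with all libraries only the bar of Lama3 lies wholly below 0. The bars are not adjusted for the number of genes tested, and the diamonds rest on 30M_216 and 30M_218 alone at 30M.

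Among the alpha chains, the ratio of Lama3 to Lama5 was 0.865, 0.689 and 0.832 at 6M, 0.862, 0.794 and 1.17 at 12M, 0.640, 0.366 and 0.368 at 20M and 0.766, 0.353 and 0.375 at 30M. The 30M library 30M_216 lay within the 6M range and the other 30M libraries lay below it. The slope was -0.0420 log2 per month (exact two-sided permutation test, p = 0.0248, adjusted over the 5 ratios 0.0620). Without 30M_216 it was -0.0572 (adjusted 0.0202), without 30M_218 -0.037 (adjusted 0.168) and without 30M_220 -0.0386 (adjusted 0.151). With the GC trend removed it was -0.039 (adjusted 0.0737). Without the 3 libraries of steep GC trend it was -0.0294, with 1 library left at 20M. The ratio of Lama4 to Lama5 was 0.283 ± 0.0464 at 30M and 0.296 ± 0.0811 at 6M, with a slope of -0.0125 log2 per month (exact two-sided permutation test, p = 0.445, adjusted 0.701).

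Of the other basement membrane genes, 0 of 28 were called by edgeR at 30M against 6M, where it called 1.96% of all genes. An unadjusted p under 0.05 was met by 4 of the 28 in edgeR, and by 11.6% of all genes. DESeq2 called 1 of the 28, Frem1, and limma voom 0, where these tools called 4.09% and 3.23% of all genes. The list's median log2 fold change was -0.11, beside 0.0028 over all tested genes. Col4a1 and Col4a2, the collagen IV chains of all basement membranes, were at 529.7 ± 271 CPM and 459 ± 198 CPM at 30M, against 492 ± 37.0 CPM and 456 ± 41.7 CPM at 6M. Col4a3 and Col4a4, the chains of the alveolar and glomerular network, were at 165 ± 41.1 CPM and 168 ± 20.8 CPM at 30M, against 252 ± 44.3 CPM and 225 ± 26.4 CPM at 6M (edgeR adjusted p = 0.229 and 0.282). Frem1, of the extracellular matrix under epithelium, was at 7.32 ± 0.726 CPM at 30M and 13.1 ± 2.60 CPM at 6M (edgeR adjusted p = 0.0884, DESeq2 adjusted p = 0.0205). Ntn4, a netrin that binds laminin gamma 1, was at 123 ± 17.8 CPM at 30M and 166 ± 6.38 CPM at 6M (edgeR adjusted p = 0.182, DESeq2 adjusted p = 0.0757). DESeq2 called Ntn4 at 30M against 12M (2.74% of all genes called), among all ages (4.28%) and for the slope (4.89%). Among all ages limma voom called 4 genes of this list, with Ntn4 among them (9.01% of all genes called). Lamc3, another laminin gamma chain, was at 18 ± 11 CPM at 30M and 9.84 ± 2.62 CPM at 6M (edgeR adjusted p = 0.618).

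Of 20 laminin receptor genes and their partners, 0 were called by edgeR at 30M against 6M, with a median log2 fold change of -0.026. In edgeR, 2 of the 20 met an unadjusted p under 0.05, as did 11.6% of all genes. DESeq2 and limma voom each called 2, with Itga2 among them, where these tools called 4.09% and 3.23% of all genes. Itga2, a collagen and laminin integrin, was at 30.3 ± 1.25 CPM at 30M and 22.7 ± 1.14 CPM at 6M (edgeR adjusted p = 0.0981, DESeq2 adjusted p = 0.0222). Dag1, dystroglycan, was at 398 ± 64.9 CPM at 30M and 401 ± 41.3 CPM at 6M, and Itgb1, the beta chain of most laminin integrins, at 872 ± 124 CPM and 896 ± 30.2 CPM. Of 13 matrix proteases and inhibitors, 1 rose and 0 fell by edgeR, and DESeq2 and limma voom each called 2, Ctss and Ctsb. These genes were named after their values were seen. Ctsb, a lysosomal cysteine protease, was at 674 ± 89.5 CPM at 30M and 422 ± 23.0 CPM at 6M (edgeR adjusted p = 0.0562, DESeq2 adjusted p = 0.00185). The gene called by edgeR was Ctss, a cysteine protease of macrophages. It was at 338 ± 93.5 CPM at 30M and 133 ± 19.6 CPM at 6M (log2 fold change 1.35, SE 0.23, edgeR adjusted p = 0.0105; 0.0887 without 6M_203). In the leukocyte marker list, edgeR called 3 of 6 genes as higher at 30M against 6M, where it called 1.96% of all genes. Only 4 of the 6 had a positive log2 fold change. Lyz2, a myeloid marker of that list, was at 9900, 5840 and 4320 CPM at 30M, against 6610, 8270 and 8010 CPM at 6M. The part of leukocytes in the level of Ctss was not tested.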

How the data were processed

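The protocols in the labels name ISOGEN II for RNA extraction, poly-A selection and paired-end Illumina sequencing. The deposited table holds whole-number read counts per gene, not normalized, 1 column per library. The submitters' processing notes list FastQC 0.11.7, Trimmomatic 0.38, HISAT2 2.1.0, featureCounts and GRCm38 (mm10). No source used here gives the annotation release or strand setting. Coordinates are the table's.

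All 12 libraries entered 1 fit in edgeR 4.0.16 (R 4.3.3; TMM, filterByExpr by age, robust quasi-likelihood). SE and 95% intervals come from its F statistic. Lengths and GC content come from GENCODE M21 transcripts (18382 of 18407 tested genes) and sequences from RefSeq. The code was tested on simulated data. No 2 libraries of an age were duplicates (chi-square per gene 5.18 to 36.6). Alternatives were DESeq2 1.42.0, limma 3.58.1 voom, other scaling, filters, GC corrections, age scale or libraries. Members, lists, ratios and alternatives were chosen with earlier results of these data known. All members are named. Other genes come from lists of basement membrane genes and their receptors. Some genes of these lists are not reported here.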

Additional observations from a re-analysis of the deposited data

How the results depend on the processing

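The count of members called stayed at 0 under every alternative in 5 of the 6 pairs of ages, all but the oldest with the youngest. Elsewhere it moved. It was 1 at 30M against 6M without 4 libraries, chosen after seeing the data (Lamb1), and 1 among all ages with limma voom (Lama5). For the slope it was 1 with DESeq2, 1 with limma voom, 1 without the 3 libraries of steep GC trend and 2 without the 4, and 0 to 1 with single libraries left out.

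The ratio of Lamb2 to Lamb1 kept its direction but lost its call with the GC trend removed (0.0115), without the 3 libraries (0.0156) and without the 4 (0.0163), and was 0.0105 to 0.0156 with single libraries left out. That of Lama3 to Lama5 was -0.0572 to -0.037 and that of Lama2 to Lama4 -0.00237 to 0.00249 likewise. The slope for Lama3 to Lama5 was -0.0294 without the 3 libraries and -0.0269 without the 4.

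Log2 fold changes at 30M against 6M turned sign in Lama2 with limma voom (-0.0694), without the 3 libraries (-0.212) and without the 4 (-0.206), in Lama4 without the 3 (-0.176) and the 4 (-0.17), and in Lama5 (-0.00185, -0.114 and -0.108), Lamb2 (-0.00751, -0.106 and -0.1) and Nid1 (-0.139, -0.304 and -0.299) under the same settings as Lama2. Nid2, near 0, did so with DESeq2 (-0.00134), limma voom (-0.169), median-of-ratios scaling (-0.00198), no count filter (-0.0055), GC trend removed (-0.0843), without the 3 (-0.281) and the 4 (-0.276). Single libraries left out gave -0.213 to 0.157 for Lama2, -0.177 to 0.292 for Lama4, -0.115 to 0.334 for Lama5, -0.107 to 0.266 for Lamb2, -0.305 to 0.227 for Nid1, -0.282 to 0.199 for Nid2 and -0.455 to 0.148 for Hspg2. Lama5 at 20M against 12M was -0.00759 without the 4. The slope of Lamb2 was -0.00704 without the 3, -0.00476 without the 4 and -0.000726 to 0.0122 with single libraries left out. The causes were not tested.

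With 3 libraries an age, a pairwise permutation test could not go below p = 0.1, and the members' intervals leave room for changes of about the size seen between libraries. No paired analysis was possible because the ages share no replicate number.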

Other observations

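The tested genes most like each member in log2 CPM over the 12 libraries are given as a description, with no test. Lama3 was followed most closely by Utrn, which encodes utrophin, a dystrophin relative (Pearson r 0.961, Spearman rho 0.937), and by Sh3rf3 (r 0.948, rho 0.979). Nid1 was followed by Svep1, a large extracellular matrix protein (r 0.977, rho 0.902). Lamc1 had Pitpnb (r 0.947, rho 0.93) and Vcl, vinculin of cell-matrix contacts (r 0.941, rho 0.916). Lamb2 had Kdm4b (r 0.965, rho 0.958) and Flt4, a receptor of lymphatic endothelium (r 0.962, rho 0.811), and Lamb1 had Gnao1 (r 0.959, rho 0.986). Hspg2 had Sipa1l3 (r 0.957, rho 0.965), Lama4 had Chd4 (r 0.98, rho 0.937), Lama5 had Mroh1 (r 0.986, rho 0.881), Lama2 had Zdhhc8 (r 0.944, rho 0.881) and Nid2 had Apcdd1 (r 0.903, rho 0.944).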
